A study of Mus musculus with 10 samples.

Results

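The genes described are 9 of the 55450 genes of the mouse annotation used, chosen by name because their products take up, carry, export, move or store cholesterol: Lrp1, Apoe, Abca1, Abcg1, Npc1, Npc2, Stard4, Tmem97 and Soat1. The 9 were chosen with earlier results of these data known, so their counts beside the shares of all genes are descriptive. For each of them, the promoter (within 2 kb of any annotated transcription start site, TSS) and the rest of the gene body were searched for ChIP-seq peaks of 3 proteins. Qki-5 is the form of the RNA-binding protein Qki that is found in the nucleus. Srebp2 is a transcription factor that turns on genes of sterol synthesis and uptake in cells low in cholesterol. RNA polymerase II (Pol II) transcribes protein-coding genes. In ChIP-seq, crosslinked and sheared chromatin is recovered with an antibody and sequenced, so that a peak is a stretch of DNA recovered more often than in input chromatin, which is sequenced without an antibody.

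The cells were oligodendrocytes differentiated in culture from neural stem cells (NSCs) of newborn pups, with 1 library for each antibody in Qk-/- cells and 1 in WT cells. The NSCs came from Nestin-CreERT2;Qk L/L pups, in which Cre is driven by the Nestin promoter and loxP sites flank exon 2 of Qk, and Qk was knocked out in culture with 4-hydroxytamoxifen. The labels call the genotype of the other cells wild type and the strain of both an FvB/C57BL6 hybrid, and both were differentiated with the thyroid hormone T3. The labels do not say whether the WT cells carried the transgene, the floxed allele or were given 4-hydroxytamoxifen. Cells were at passage 7 for the libraries of Qki-5 and Pol II, which had a common input in each genotype, and at passage 8 for those of Srebp2, which had separate inputs. With 1 library a group, no comparison between genotypes has a replicate check or a test, and a difference between libraries cannot be told apart from a difference between genotypes.

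Neurons and glia make or recycle their own cholesterol, since lipoproteins of the blood do not pass the blood-brain barrier. Cholesterol leaves a cell through ABC transporters, is loaded onto ApoE particles, enters other cells through lipoprotein receptors, and is freed from lysosomes by the Npc proteins. Inside the cell, carrier proteins pass it between membranes, and surplus is stored as esters. Srebp2 raises synthesis and uptake when sterols are low, whereas the nuclear receptor LXR raises efflux when sterols are high.

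The 6 peak lists differed in length, and this bears on every count and rank below. They held 427 peaks in Qk-/- cells and 7539 in WT cells for Qki-5, 28 and 77 for Srebp2, and 12835 and 32280 for Pol II. The paper itself reports far more peaks of Qki-5 and of Srebp2 than the WT lists hold. A gene without a peak in these lists may therefore have had one in the peak sets of the paper. The fold enrichment of a peak is its pileup over the local background at the summit, as deposited. Its median was 7.15 in Qk-/- cells and 5.34 in WT cells for Qki-5, 8.58 and 10.4 for Srebp2, and 8.43 and 5.22 for Pol II. Peaks are named mNSC in the lists of Qki-5 and Pol II but OL in those of Srebp2, although every library is labelled as differentiated oligodendrocytes. Of 9 oligodendrocyte markers, 2 had a Pol II promoter peak in Qk-/- cells and in WT cells (Cnp and Olig2), and none was called at the others, among them Mbp, Mag, Mog, Mobp, Myrf and Sox10. NSC markers had one at 3 of 4 genes in Qk-/- cells and 4 of 4 in WT cells, as had precursor markers, astrocyte markers at 3 of 5 in both, neuronal markers at 1 and 2 of 5, and microglial markers at 0 of 5 in both. In a bulk culture, fewer cells with a protein bound and less binding per cell cannot be told apart, and the part of cell makeup in the results was not tested. At Qk itself, no Qki-5 promoter peak was called in Qk-/- cells, against a peak of 8.13-fold in WT cells.

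At promoters, Pol II was present at most of these genes, and Qki-5 and Srebp2 at a pair each. Pol II peaks were called at 7 of the 9 promoters in Qk-/- cells and at 8 in WT cells, against 23.0% and 28.4% of all annotated genes (46.5% and 54.1% of protein-coding genes, to which all 9 belong). Qki-5 peaks were at 0 of the 9 in Qk-/- cells and at Apoe and Stard4 in WT cells, against 0.503% and 10.2% of all genes (0.87% and 19.4% of protein-coding genes). Srebp2 peaks were at 0 of the 9 in Qk-/- cells and at Stard4 and Tmem97 in WT cells, against 0.0577% and 0.15% of all genes (0.118% and 0.292% of protein-coding genes). The 2 of 9 genes with Qki-5 in WT cells are thus close to the protein-coding share. Stard4 alone carried all 3 proteins in WT cells. Abcg1 had no peak in any of the 6 lists.

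**Figure D1:**
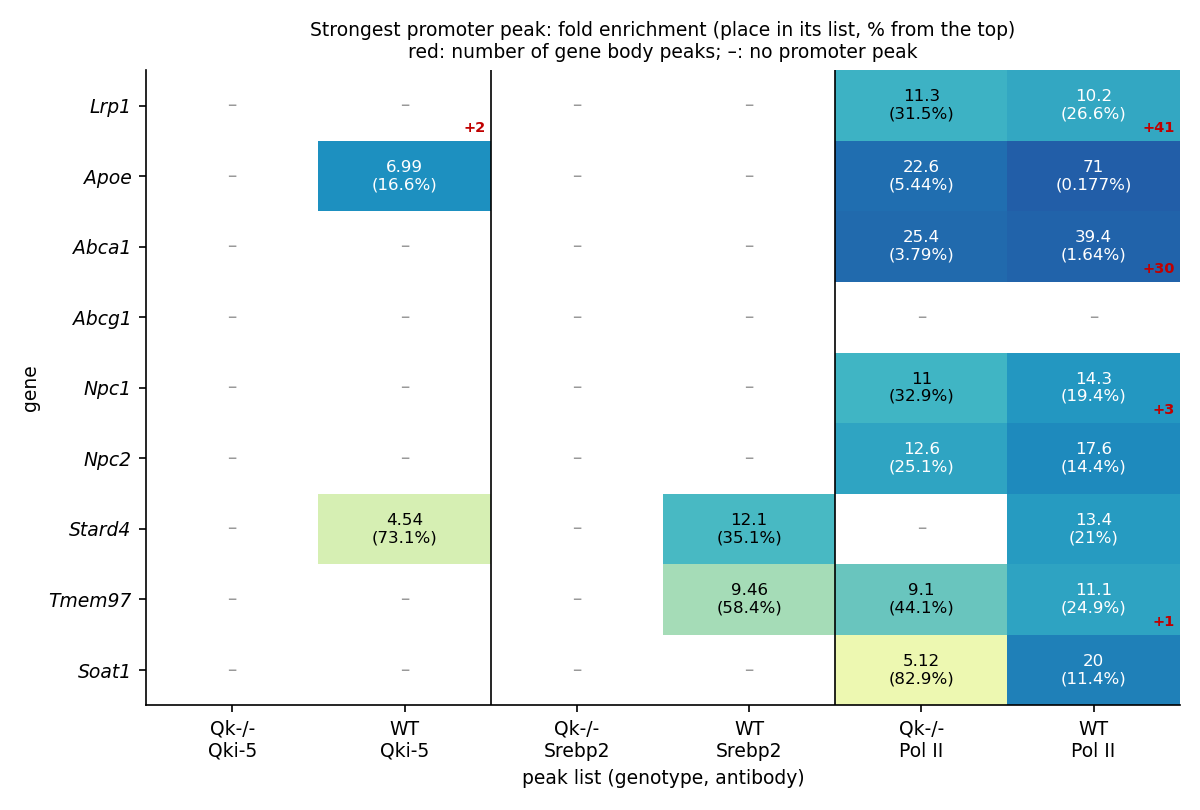
Fold enrichment of the strongest promoter peak for 9 genes (rows) in 6 peak lists (columns, 1 library each, Qk-/- left of WT), with its place in its own list in percent from the top, which also sets the shade, and the number of gene body peaks in red. Pol II fills 7 cells in Qk-/- and 8 in WT, Qki-5 and Srebp2 fill 2 each in WT only, and gene body peaks are drawn in WT columns alone.

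Lrp1 encodes a large endocytic lipoprotein receptor that takes up ApoE-bearing particles. In mm10 it spans 127538161 to 127621148 of chromosome 10 (minus strand). Its Pol II promoter peak was the one whose fold was not lower in Qk-/- cells, at 11.3-fold (rank 4038 of 12835), against 10.2-fold in WT cells (rank 8571 of 32280). The summits lay 700 bp upstream of the 5′ end in Qk-/- cells and 666 bp upstream in WT cells. The WT peak was 5486 bp wide and reached into the gene, and 1.04% of WT Pol II peaks were as wide. In Qk-/- cells, 2 narrower peaks lay within its span, of which the second (9.42-fold) had its summit in the UTR.

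Lrp1 was the only one of the 9 with Qki-5 in the gene body, with 0 peaks in Qk-/- cells and 2 intronic peaks in WT cells. Of all genes with a body outside promoters, 5.13% had such a peak in WT cells. The first, 6.99-fold over input (rank 1250 of 7539), spanned 127604939 to 127605312, with its summit 16032 bp from the 5′ end. The second, 5.29-fold (rank 3964), spanned 127597345 to 127597817, with its summit 23585 bp from the 5′ end. The second also fell in the promoter of Gm16217, an antisense transcript within Lrp1 annotated from 127596548 to 127597870 on the plus strand, and ChIP-seq reads do not tell the strands apart. Both lay inside Pol II peaks, 1539 bp wide and 7.17-fold at the first and 3135 bp wide and 8.08-fold at the second, which was the strongest Pol II peak within the body of Lrp1. Since Qki is known for binding RNA with the core ACUAAC, or the same core ending in U, the DNA at the summits is shown on the strand of Lrp1 (RefSeq, GRCm38.p6), 100 bp on each side, with the summit base in capitals.
Lrp1 intronic Qki-5 peak 1, chr10:127605016-127605216, minus strand: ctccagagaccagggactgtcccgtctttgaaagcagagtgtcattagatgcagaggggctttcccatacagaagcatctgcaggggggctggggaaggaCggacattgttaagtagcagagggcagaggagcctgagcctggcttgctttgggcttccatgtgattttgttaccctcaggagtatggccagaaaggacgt
Lrp1 intronic Qki-5 peak 2, chr10:127597463-127597663, minus strand: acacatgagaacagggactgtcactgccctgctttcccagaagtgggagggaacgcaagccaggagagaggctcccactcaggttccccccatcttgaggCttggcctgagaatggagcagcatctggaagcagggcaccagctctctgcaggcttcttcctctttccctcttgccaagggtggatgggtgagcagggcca
Neither window holds a Qki core written as DNA on either strand. The letters ACTAAC were present in 2.87% of all WT Qki-5 windows of this length, and the variant ACTAAT in 2.56%. Neither window holds an E-box, a CCAAT box or a GC box. The windows hold 3 and 1 CpG dinucleotides, with 54.2% and 59.2% G and C. Another Qki-5 peak (4.51-fold, 127536097 to 127536388) lay 1868 bp past the 3′ end, in the promoter of the neighboring gene Nxph4 and inside a Pol II peak of 11.4-fold in WT cells.

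Pol II also lined the body of Lrp1 in WT cells, in 41 peaks outside the promoter, whereas 0 were called there in Qk-/- cells. They ranged from 2.93-fold to 8.08-fold, with a median of 4.21, and together covered 27.3% of the body. They were spread along the gene, with 10, 10, 12 and 9 summits in 4 successive stretches of equal length and a median gap of 1.38 kb. Of the summits, 30 lay in introns and 11 in exons. Among 8836 genes with WT Pol II at the promoter and a body of at least 10 kb, the median number of such peaks was 0, and 18 genes (0.204%) had as many as Lrp1. At 5.08 peaks per 10 kb, 0.702% of these genes had as high a density. A long stretch called as 1 peak counts once, and WT Pol II peaks reached 51793 bp, so such counts also depend on how signal was split. The covered share was not compared with other genes.

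Apoe encodes apolipoprotein E, the main lipoprotein carrier of the brain, made mostly by astrocytes. It spans 19696109 to 19699188 of chromosome 7 (minus strand). Its promoter held the strongest Pol II peak of the 9 genes in WT cells, 71.0-fold over input (rank 57 of 32280), against 22.6-fold in Qk-/- cells (rank 698 of 12835), where it came after Abca1. The WT peak extended over the whole gene and into the 2 kb promoter window of the neighboring gene Apoc1, short of the annotated 5′ end of Apoc1. It was 8001 bp wide, and 0.431% of WT Pol II peaks were as wide. In Qk-/- cells its span was taken by 3 separate peaks of 22.6-fold, 6.21-fold and 10.1-fold, of which the last had its summit past the 3′ end, nearest to Apoc1. The strongest summits lay 184 bp downstream of the 5′ end in Qk-/- cells and 199 bp in WT cells.
A Qki-5 peak was called at Apoe in WT cells, with 6.99-fold enrichment (rank 1250 of 7539), and none in Qk-/- cells. It spanned 19698948 to 19699188, 241 bp that end at the annotated 5′ end, with its summit in the UTR, 126 bp downstream of the 5′ end and 10 bp from the nearest TSS. The Pol II summit lay 58 bp away in Qk-/- cells and 73 bp away in WT cells. Because a CCAAT box, the site of the factor NF-Y, lay 14 bp from the Qki-5 summit, 30 bases with both are shown on the strand of Apoe (RefSeq, GRCm38.p6), the box in capitals, where it reads in reverse as ATTGG.
Apoe Qki-5 summit, chr7:19699053-19699082, minus strand: taATTGGaccggtctgggatccgatcccct
A CCAAT box was present in 19.4% of all WT Qki-5 windows within 100 bp of the summit. The Apoe window also held 2 GC boxes (GGGCGG, a site of Sp1), which were present in 36.6% of these windows, and no Qki core.

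**Figure D2:**
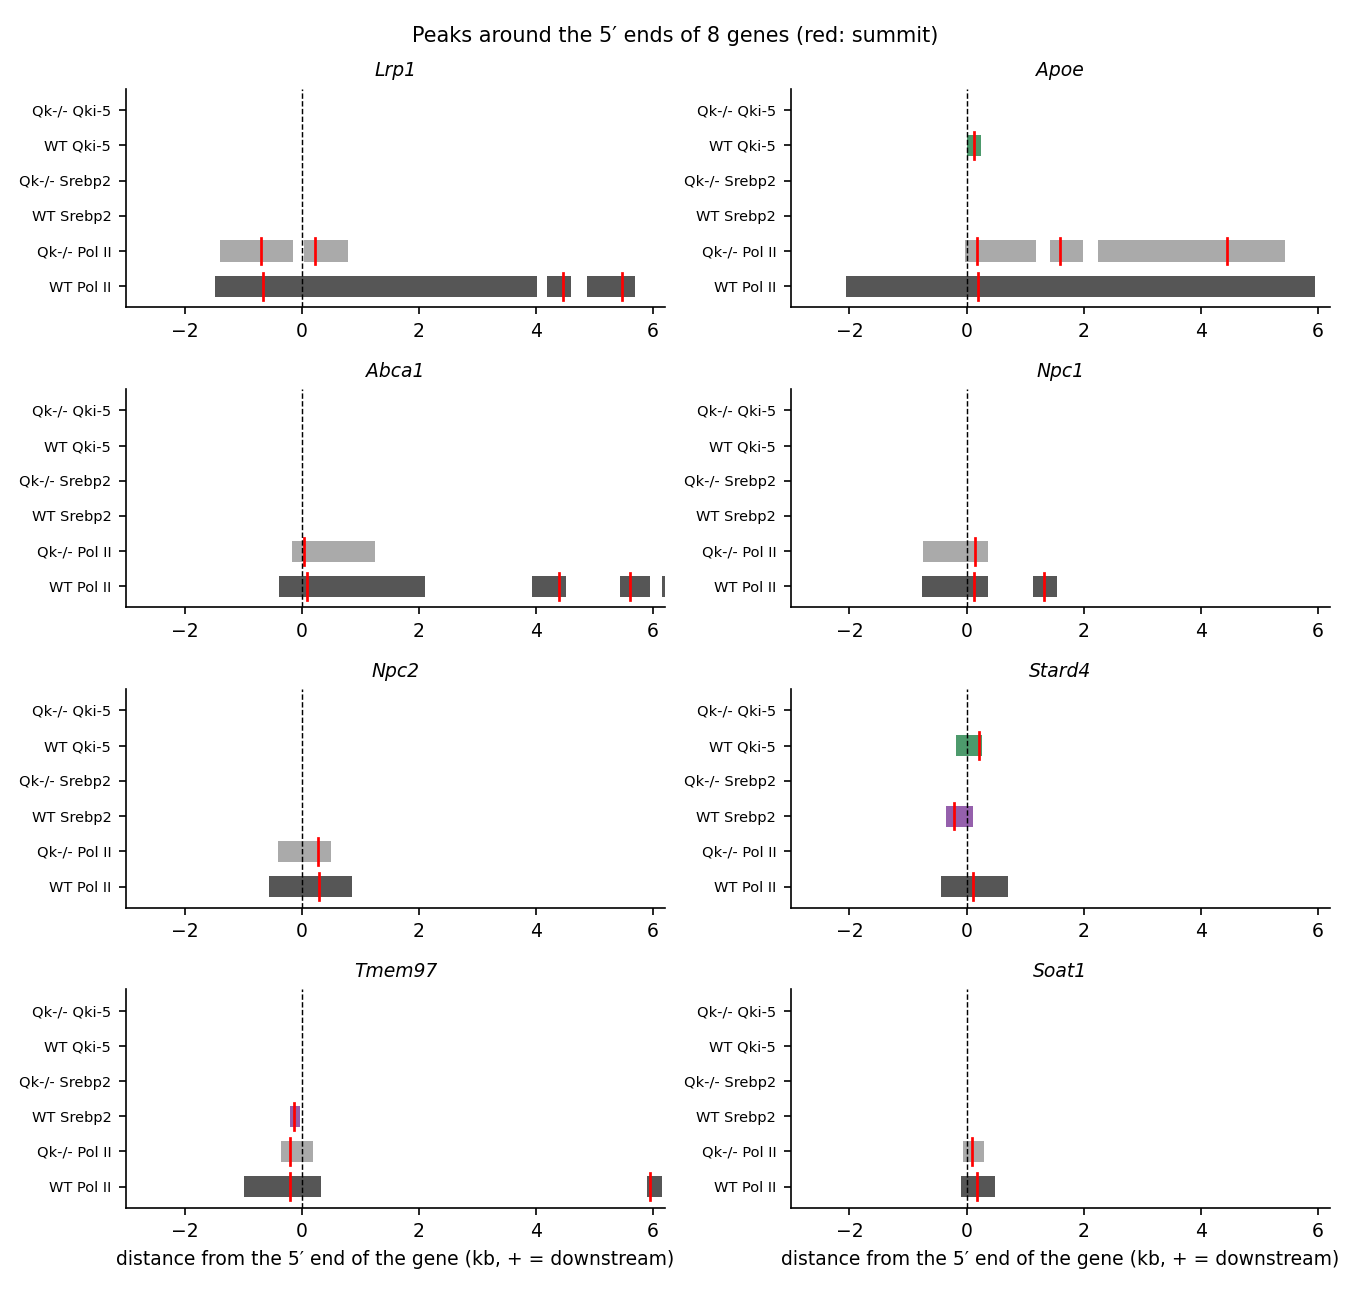
Peaks of the 6 lists around the 5′ ends of the 8 genes with a peak, as bars along the distance in kb from the 5′ end in the direction of transcription, with summits in red and Qk-/- above WT for each antibody. The WT Pol II peaks of Apoe (8001 bp) and Lrp1 (5486 bp) are the widest, and each has 2 or more narrower Qk-/- peaks within its span.

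Abca1 and Abcg1 encode the ABC transporters that export cholesterol, mainly to lipid-poor apolipoproteins and to formed particles, and both are known targets of LXR. They stood at opposite ends for Pol II. Abca1 spans 53030787 to 53159895 of chromosome 4 (minus strand). Its Pol II promoter peak was 25.4-fold over input in Qk-/- cells (rank 486 of 12835), the highest of the 9 genes there, and 39.4-fold in WT cells (rank 528 of 32280). The summits lay 47 bp and 88 bp downstream of the 5′ end in Qk-/- and WT cells, in the UTR. No Qki-5 or Srebp2 peak was called at its promoter, in its body or within 10 kb of either end in either genotype. Among promoters bound in both Pol II lists, that of Abca1 kept nearly the same place (6.06% from the top in Qk-/- and 6.74% in WT cells). For this reason, the 250 bases before the 5′ end are shown on the strand of the gene (RefSeq, GRCm38.p6). Matches to the E-box CACGTG and to the GC box are in capitals.
Abca1 promoter, chr4:53159896-53160145, minus strand: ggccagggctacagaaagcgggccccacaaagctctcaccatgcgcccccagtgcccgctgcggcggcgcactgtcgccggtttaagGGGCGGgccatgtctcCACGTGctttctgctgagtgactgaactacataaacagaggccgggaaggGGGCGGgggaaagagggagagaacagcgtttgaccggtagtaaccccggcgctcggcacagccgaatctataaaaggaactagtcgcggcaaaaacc
The stretch holds 1 E-box and 2 GC boxes. Of 32851 RefSeq promoters from 250 bp before to 50 bp after the start, 7.15% hold an E-box and 35.7% a GC box. An exact direct repeat of AGGTCA with a spacer of 4 bases (DR4), the consensus for LXR, was not among these letters, and 0.0152% of the promoters hold one. Repeats with differing bases were not searched for, so the stretch may still hold an LXR site of that kind.

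Abca1 also carried Pol II along its body, with 0 peaks in Qk-/- cells and 30 in WT cells, between 2.96-fold and 5.70-fold (median 4.23). In contrast to Lrp1, the first of 4 such stretches held the most summits (12), followed by 8, 5 and 5, and the median gap was 3.22 kb. As many peaks were found in 38 genes (0.430%) of the 8836, and a density as high as its 2.36 peaks per 10 kb in 3.54%. Another Pol II peak in WT cells (7.82-fold, 1955 bp wide) lay 1920 bp past the 3′ end, above every peak of the body. Abcg1, on chromosome 17 from 31057675 to 31117988 on the plus strand, had no Pol II, Qki-5 or Srebp2 peak at either of its 2 TSSs, in its body or within 10 kb of its ends in any list. These lists cannot tell a weak signal from none.

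**Figure D3:**
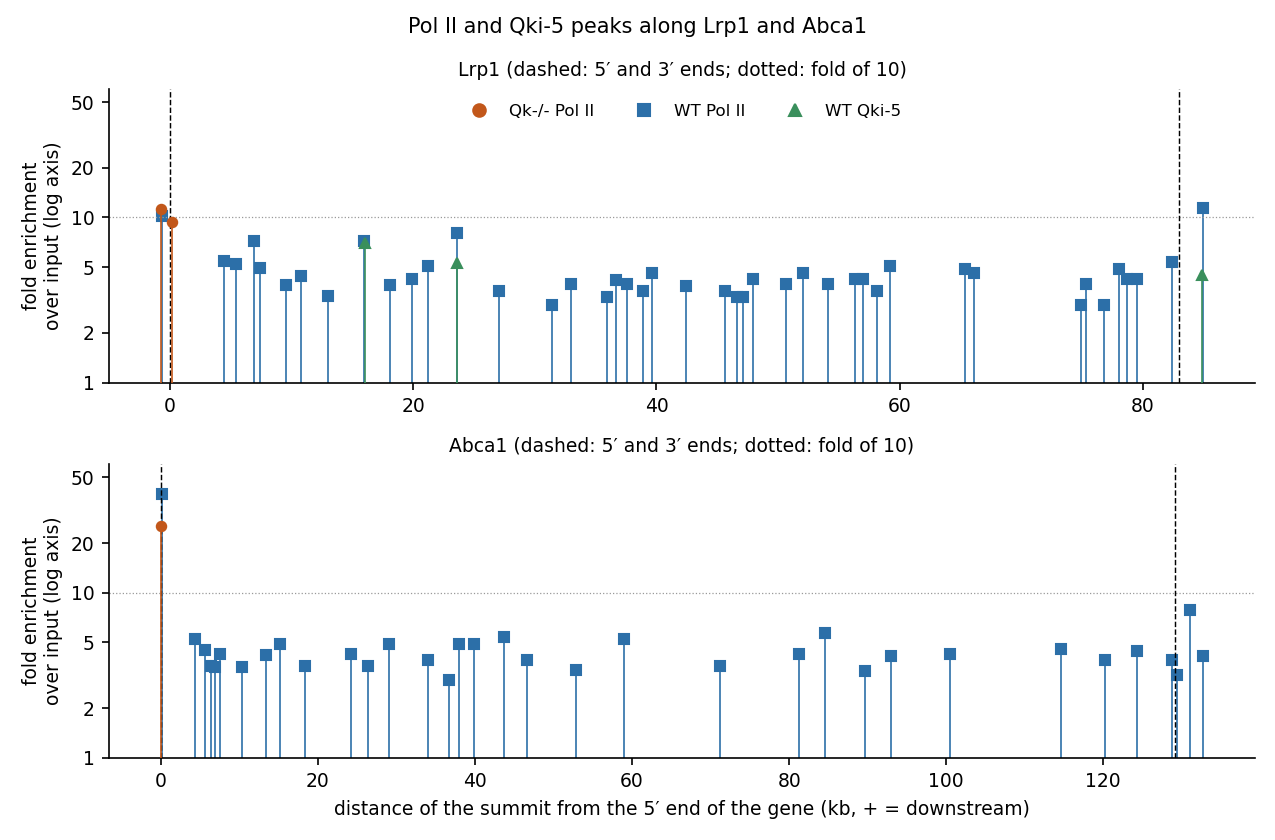
Pol II and Qki-5 peaks along Lrp1 and Abca1, each at the distance of its summit from the 5′ end (kb) and at its fold enrichment over input (log axis), with 1 library per list. Qk-/- Pol II peaks are drawn at the 5′ ends alone, whereas WT Pol II peaks continue through both genes, below the dotted line at a fold of 10.

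The absence of Pol II gene body calls in Qk-/- cells was not particular to these genes. Gene body peaks outside promoters were present in 0 of the 9 genes in Qk-/- cells and in 4 in WT cells (Lrp1, Abca1, Npc1 and Tmem97), against 4.05% and 16.4% of all genes with such a body. Of the WT Pol II peaks of all genes, a Qk-/- peak overlapped 2.84% of those under 5-fold, 26.6% of those from 5-fold to 10-fold, 91.6% from 10-fold to 20-fold and 99.6% at 20-fold and over. All 75 gene body peaks of these 4 genes were under 10-fold, and 63 were under 5-fold. Among the 69 genes with at least 20 body peaks in WT cells, 30 (43.5%) had 0 in Qk-/- cells, and the limit of 20 was chosen after seeing the data. Qk itself had 6 body peaks in Qk-/- cells and 87 in WT cells.

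**Figure D4:**
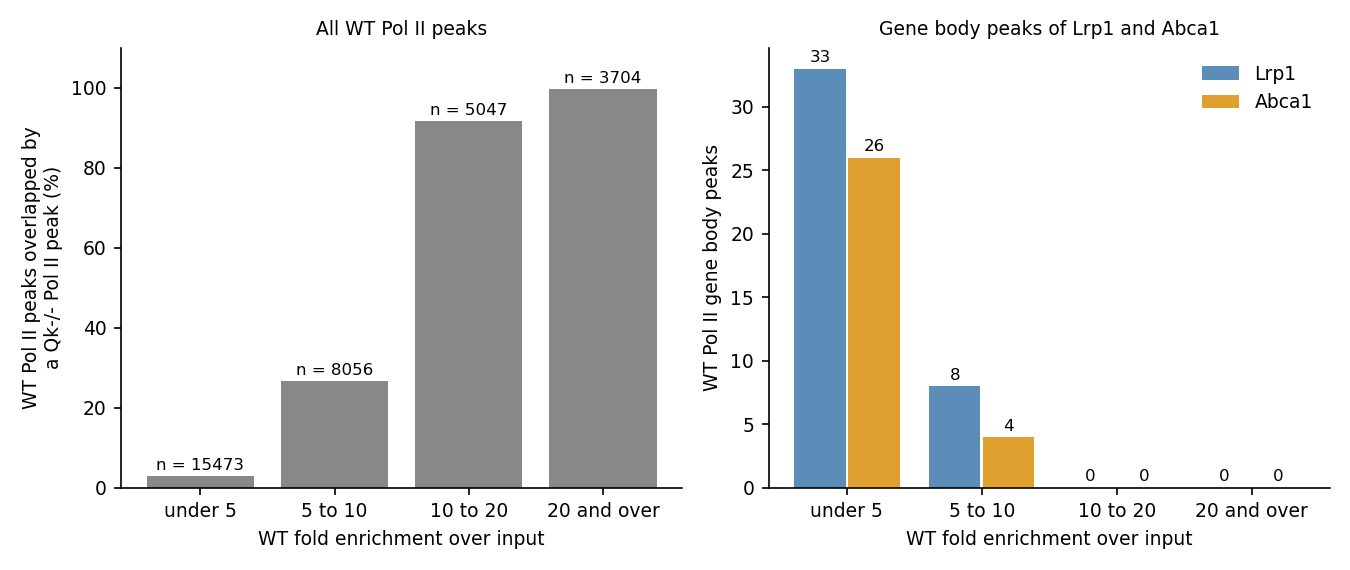
Left, percent of all WT Pol II peaks that a Qk-/- Pol II peak overlaps, by WT fold enrichment, with the number of peaks above each bar; right, number of WT Pol II gene body peaks of Lrp1 and Abca1 in the same classes. The overlap is 2.84% under 5-fold, the class that holds 33 of 41 peaks of Lrp1 and 26 of 30 of Abca1.

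Npc1 and Npc2 encode the membrane and the soluble protein that together release cholesterol from late endosomes and lysosomes, and loss of either causes Niemann-Pick disease type C. Neither had a Qki-5 or Srebp2 peak. Npc2, on chromosome 12 from 84754562 to 84773152, had a Pol II promoter peak of 12.6-fold in Qk-/- cells (rank 3223 of 12835) and 17.6-fold in WT cells (rank 4656 of 32280), with summits 286 bp and 292 bp downstream of the 5′ end. The peak also covered the promoter of Isca2, which starts on the other strand within the same region, so the signal cannot be assigned to either gene. Npc1, on chromosome 18 from 12189692 to 12236400, had 11.0-fold in Qk-/- cells (rank 4222) and 14.3-fold in WT cells (rank 6277), with summits 148 bp and 121 bp downstream of the 5′ end. A second WT peak of 6.62-fold lay in the intron 1328 bp from the 5′ end, with no Qk-/- peak over it. The body of Npc1 had 3 weak Pol II peaks in WT cells, of 3.32-fold to 3.93-fold, all in its last part, 41.5 to 46.2 kb from the 5′ end. Those of 3.57-fold and 3.32-fold also fell in the promoter of another gene, Gm15956. Past the 3′ end of Npc1, 4 more peaks of at most 4.90-fold lay within 10 kb.

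Soat1 encodes the enzyme of the endoplasmic reticulum that esterifies cholesterol for storage in lipid droplets. Its Pol II promoter peak differed the most between the lists among the 7 genes with a peak in both, at 5.12-fold in Qk-/- cells (rank 10640 of 12835) and 20-fold in WT cells (rank 3689 of 32280). Among the 12723 promoters bound in both lists, Soat1 was at 92.4% from the top in Qk-/- cells and at 40.1% in WT cells. A fall in place as large as these 52.3 percentage points was seen at 2.63% of the promoters, and a ratio as low as its 0.256 at 2.93%. The peak was 364 bp wide in Qk-/- cells and 577 bp in WT cells, where 77.5% and 51.2% of Pol II peaks were as wide, with summits 97 bp and 179 bp downstream of the 5′ end in the UTR. Soat1 spans 156424525 to 156474331 of chromosome 1 (minus strand) and had no Qki-5 or Srebp2 peak.

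**Figure D5:**
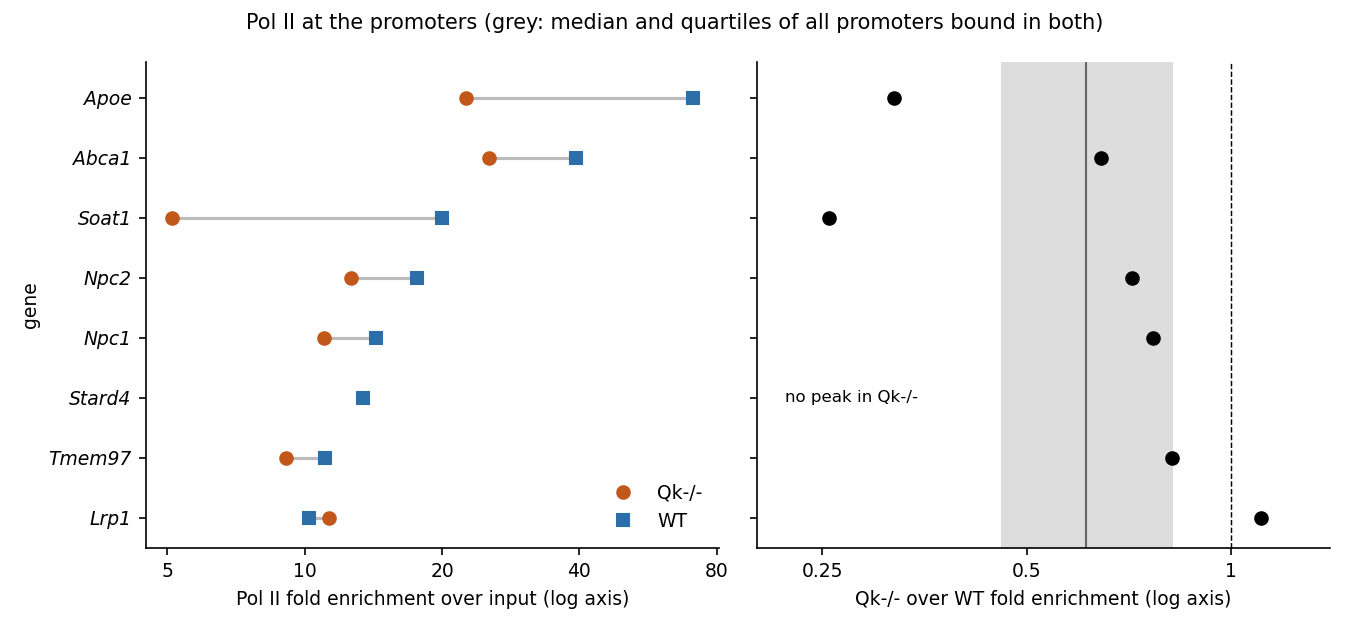
Left, fold enrichment over input (log axis) of the strongest Pol II promoter peak of 8 genes in Qk-/- (orange) and WT (blue) cells, 1 library each; right, the ratio of Qk-/- to WT on a log axis, with the median (0.611) and quartiles (0.46 to 0.818) of 12723 promoters in grey. Soat1 (0.256) and Apoe (0.318) lie below the quartiles, Lrp1 (1.1) lies above 1, and Stard4 has no Qk-/- peak.

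Set side by side, the deposited Pol II folds were lower in Qk-/- cells at 6 of the 7 genes bound in both lists, and so they were at 86.6% of all such promoters. The median ratio of Qk-/- to WT was 0.716 over the 7 genes and 0.611 over the 12723 promoters, with quartiles of 0.46 and 0.818. Within that range lay Abca1 (0.644), Npc2 (0.716) and Npc1 (0.766). Tmem97 (0.819) and Lrp1 (1.1) were above it, and Apoe (0.318) and Soat1 (0.256) below it. A ratio as low as that of Apoe was found at 7.14% of the promoters. Read as places among the bound promoters, Lrp1 was at 43.4% from the top in Qk-/- cells and at 82.8% in WT cells, the widest move upward of the 7 genes, and Abca1 was at 6.06% and 6.74%. Pol II summits differed by 1 to 82 bp between the genotypes, with a median of 27 bp, against 31 bp over all promoters.

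Tmem97 encodes the sigma-2 receptor, a membrane protein that binds Npc1 and is known as a sterol-responsive gene. It spans 78541817 to 78550777 of chromosome 11 (minus strand). A Srebp2 peak was called at its promoter in WT cells, 9.46-fold over input (rank 45 of 77), and none in Qk-/- cells. The peak was 175 bp wide and lay wholly upstream of the single TSS, with its summit 130 bp before it. Pol II was present in both, at 9.10-fold in Qk-/- cells (rank 5664) and 11.1-fold in WT cells (rank 8050), with summits 201 bp and 202 bp upstream of the 5′ end, 71 bp and 72 bp from the Srebp2 summit. The whole Srebp2 peak is shown on the strand of Tmem97 (RefSeq, GRCm38.p6), as the complete stretch called for this factor, with a CCAAT box and a GC box in capitals. Srebp2 is known to act together with NF-Y and Sp1, which bind these boxes.
Tmem97 Srebp2 peak, chr11:78550805-78550979, minus strand: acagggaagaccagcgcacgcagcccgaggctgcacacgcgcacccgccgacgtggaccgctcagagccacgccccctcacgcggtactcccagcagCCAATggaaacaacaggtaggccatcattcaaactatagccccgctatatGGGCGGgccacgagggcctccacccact
The CCAAT box lies 25 bp from the summit, and the GC box lies 75 bp from it. Each of these motifs was found within 100 bp of the summit in 69.7% of WT Srebp2 windows, against 19.0% and 21.8% of WT Pol II windows, which include gene body peaks. Of all RefSeq promoters, taken over a longer stretch, 37.4% hold a CCAAT box and 35.7% a GC box. The letters TCACNCCAC (the sterol regulatory element, SRE) were not found near the summit of Tmem97, nor were they with 1 differing base allowed. An exact match was present in 7.89% of WT Srebp2 windows and a match with 1 differing base in 44.7%. The peak holds 15 CpG dinucleotides and 65.1% G and C.

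The RefSeq promoters of these genes were rich in G, C and CpG. A sequence was matched for 6 of the 9, Lrp1, Apoe, Abca1, Npc2, Tmem97 and Soat1. Their content of G and C was 57.7% to 67.7%, against a median of 52.7% over all promoters, and they held 10 to 28 CpG dinucleotides, against a median of 7. Tmem97 held the most (28), a count reached by 14.2% of all promoters, and Apoe the fewest (10), reached by 43.5%. None of the 6 held an exact match to the SRE, the DR4 or a Qki core. CCAAT boxes were found at Npc2, Tmem97 and Soat1, and GC boxes at all but Apoe.

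Stard4 encodes a soluble carrier that moves cholesterol between the plasma membrane and the endoplasmic reticulum, and is known as a target of Srebp2. All 3 proteins had a peak at its promoter in WT cells and none had one in Qk-/- cells. The gene spans 33199355 to 33213862 of chromosome 18 (minus strand). In WT cells, the Qki-5 peak (4.54-fold, rank 5512 of 7539) spanned 33213606 to 33214035, the Srebp2 peak (12.1-fold, rank 27 of 77) 33213750 to 33214211, and the Pol II peak (13.4-fold, rank 6788 of 32280) 33213149 to 33214298. The Srebp2 summit lay 218 bp upstream of the 5′ end, the Pol II summit 115 bp downstream in the UTR and the Qki-5 summit 214 bp downstream in a coding exon. The Qki-5 and Srebp2 summits were thus 432 bp apart, although the peaks overlapped by 286 bp. Within 100 bp of the Srebp2 summit there were 3 CCAAT boxes, the closest 11 bp away, and a match to the SRE with 1 differing base 74 bp away. With a fold enrichment of at least 5, Stard4 had no Qki-5 peak.

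Of the peaks at these genes that were called in WT cells, those of Qki-5 and Srebp2 had no counterpart in Qk-/- cells, as was the case for most promoters bound by these factors. For Qki-5, 0 of 2 promoters were also called in Qk-/- cells, against 4.52% of all WT-bound promoters. For Srebp2 it was 0 of 2, against 26.5% of 83 promoters (95% Clopper-Pearson interval 17.4 to 37.3%, counting error only). The WT list held 77 peaks, so some of the 83 promoters shared a peak. The interval and the divisions below do not allow for this. Stard4 (12.1-fold) was above the median of the WT Srebp2 list (10.4) and Tmem97 (9.46-fold) below it. Of the 53 promoters with at most the fold of Stard4, 4 were called in Qk-/- cells (7.55%), against 18 of the 30 with a higher fold (60%), a division set at the fold of Stard4 itself. For Pol II it was 7 of 8, against 80.8%. The exception was Stard4, whose WT fold belonged to the middle one of 5 equal classes of the bound promoters (12.8 to 17.9), in which 95.3% were also called in Qk-/- cells. Npc1 and Npc2 were in the same class. In this class, 148 of 3150 promoters had no Qk-/- Pol II peak. They included the promoter of the squalene synthase gene Fdft1, which like Stard4 carried Srebp2 in WT cells and was looked up after seeing the data. In all, 75 of 82 promoters with Srebp2 and Pol II in WT cells had Pol II in Qk-/- cells (91.5%). In the class of Stard4 it was 15 of 19 (78.9%), below the 95.3% of all promoters there, with Stard4 and Fdft1 among the 4 without. In each of the other classes the share was higher with Srebp2 than over all promoters, and the difference was not tested.

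Overlap of Qki-5 peaks with Pol II peaks was common in WT cells and not particular to these genes. All 4 WT Qki-5 peaks at these promoters and gene bodies (Apoe, Stard4 and the introns of Lrp1) overlapped a WT Pol II peak, against 79.3% of all WT Qki-5 peaks. Of the 8 promoters with Pol II in WT cells, 2 also had Qki-5, against 34.1% of all Pol II-bound promoters.

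Pol II was present at most other genes of cholesterol handling. Of 38 further genes of uptake, transport, efflux, lysosomal release and esterification, 28 had a Pol II promoter peak in Qk-/- cells and 32 in WT cells. Of all genes, 23.0% and 28.4% had one (46.5% and 54.1% of protein-coding genes). Those without a peak in WT cells included Apod, Npc1l1, Soat2, Cyp27a1 and Ch25h. Qki-5 was at 2 of the 38 in Qk-/- cells and at 5 in WT cells, against 0.503% and 10.2% of all genes (0.87% and 19.4% of protein-coding genes). The highest were Lamp1, a protein of the lysosomal membrane (10.3-fold in Qk-/- and 16.0-fold in WT cells), Lrp6, a Wnt co-receptor of the same family as Lrp1 (6.41-fold and 13.7-fold), and Osbpl2, an oxysterol-binding protein (no peak in Qk-/- cells and 5.10-fold in WT cells).
By comparison, Srebp2 was at 10 of 20 sterol synthesis enzymes in Qk-/- cells and at 16 in WT cells. Enzyme genes ranged from 4.49-fold at Mvk to 57.6-fold at Msmo1 in WT cells, so that Stard4 (12.1-fold) and Tmem97 (9.46-fold) lay in the lower part of their range. Among 7 genes of Srebp processing and feedback, Srebp2 was at 2 in both genotypes. These were Insig1, which holds Srebp proteins in the endoplasmic reticulum (12-fold in Qk-/- and 37.9-fold in WT cells), and Srebf2, the gene of Srebp2 itself (21.3-fold and 41.1-fold). All 7 had Pol II in both genotypes. These lists were drawn up with earlier results of these data known, and no test was made of the differences between them.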

How the data were processed

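Chromatin was analysed from 10 libraries, of which 6 ChIP libraries have the peak lists used here and 4 are inputs. In the methods, reads were trimmed (Trim Galore), mapped to mm10 (Bowtie2), freed of PCR duplicates (SAMtools) and turned into peaks relative to the matching input (MACS2 2.1.2, q-value of 0.05), library by library. The submitters' processing notes give Bowtie 1.2.2 as the aligner. The fold enrichment deposited by the authors is a ratio of pileup to local background at the summit. The −log10 p and −log10 q values deposited by the authors are those of MACS2. In every list the deposited score equalled −log10 q multiplied by 10. Read totals are not in the lists, so the depth of each sample and its precision are unknown, folds were ranked only within a list, and no test was made. Intervals of shares are 95% Clopper-Pearson intervals.

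Python 3.11.15 was used with numpy 2.4.6, pandas 2.3.3 and matplotlib 3.10.9, and bases of GRCm38.p6 were extracted by samtools 1.23.1 and pysam 0.24.0. The chromosomes of the reference held all peaks, and the 8 RefSeq promoter sequences of members of the set equalled the genome. Promoters lay within 2 kb of the 77258 TSSs of 55450 genes in GENCODE M21 basic and were bound when a peak overlapped them by at least 1 bp, the strongest peak giving the fold. Gene body peaks had their summit in the gene outside its promoters. The assignment was tested on simulated data. The 9 genes, all named, and the other lists were chosen with earlier results of these data known. From those lists, only some of the genes with a Srebp2 promoter peak are named. Of the 38 further cholesterol handling genes, the 3 with the highest WT Qki-5 fold are named. Other names were chosen after their values were seen. Some genes of these lists are not reported here. Alternatives were a q-value of 0.01, a fold of at least 5, 1 kb or 2.5 kb around the TSS, the summit rather than the peak inside the promoter, the nearest TSS, protein-coding genes, other overlap rules, ranks by q-value or among bound genes, and other motif windows.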

Additional observations from a re-analysis of the deposited data

How the results depend on the processing

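Of 72 recomputed counts and shares, 63 stayed within 1.5 times the value reported. Many of these 63 were counts of 0 that stayed 0, which stricter settings cannot raise. With a fold of at least 5, Qki-5 was at 1 promoter in WT cells (Apoe) in place of 2, and Pol II was in 2 gene bodies in WT cells in place of 4. With any overlap in place of the summit, 1 gene body had Pol II in Qk-/- cells in place of 0. For protein-coding genes only, the percent of genes with a promoter peak was, in Qk-/- and WT cells, 0.87 and 19.4 for Qki-5, 0.118 and 0.292 for Srebp2, and 46.5 and 54.1 for Pol II. Ranking by q-value moved 2 of 19 places by over 1.5 times, both at Apoe in WT cells, to 25.1% from the top for Qki-5 and 0.458% for Pol II. Ranking among bound genes moved 10 of 19. Other motif windows (50 and 150 bp) moved 5 of 42 motif counts, and most of the 42 were 0 in every window. Allowing 1 differing base added an SRE match at Stard4, an alternative chosen after seeing the data. No paired analysis was possible because there was 1 library for each antibody and genotype. No depth is known, so a missing call is not an absence of signal.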
